A study of Mus musculus with 8 samples.

Results

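The core blood emergence transcription factors examined here are 10 genes, Runx1, Gfi1, Gfi1b, Tal1, Lyl1, Lmo2, Gata2, Myb, Cbfa2t3 and Meis1, out of 14683 genes named on the arrays. Each was taken as the probe set whose platform annotation names that gene alone. Every one of the 10 genes had exactly 1 such probe set of the 16348 on the array, so no choice between probe sets arose and no member was lost to a filter. The measurements came from 8 arrays of mouse haematopoietic precursors, 2 in each of 4 groups: with doxycycline for 12 h, without it for 12 h, with doxycycline for 24 h, and without it for 24 h. All groups were iSOX7 cells, which derive from Ainv18 mouse embryonic stem cells, so the cells without doxycycline carry the inducible SOX7 transgene too. Embryoid bodies yielded FLK1+ cells, these were grown in liquid blast medium that held VEGF, IL6 and medium conditioned by D4T cells, and the CD41+ CD34- fraction was sorted out of that culture. The sources used here name 1 cell line, so no second line stands behind any value, and cells given doxycycline without the transgene were not analysed here.

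Blood cells first arise from a specialised endothelium, the haemogenic endothelium, whose cells lose their vessel identity as they enter the blood lineage. TAL1 and its relative LYL1 are basic helix-loop-helix proteins that bind DNA with an E-protein partner, and LMO2 bridges them to GATA factors, while the corepressor ETO2, the product of Cbfa2t3, joins the same complex. RUNX1 is required for the passage from haemogenic endothelium to blood, and it acts in part through the paralogous repressors GFI1 and GFI1B, which silence endothelial genes with the demethylase LSD1. MYB and MEIS1 are needed for definitive blood precursors to form or expand.

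Over both times, Tal1 and Cbfa2t3 fell with doxycycline, by 1.39-fold and 1.52-fold. They were the 2 of 10 factors called lower, against 1.81% of all probe sets. The Tal1 call was lost when any of 6 of the 8 arrays was left out, and the Cbfa2t3 call for either of 2. In a second fit, with the replicate number as a block, Meis1 was also called, 1.60-fold higher (limma adjusted p = 0.0138). Myb had its widest gap at 12 h, where it was 1.96-fold lower with doxycycline at an adjusted p of 0.0511, just outside the threshold of 0.05. The paralogs Gfi1 and Gfi1b were not called in the main fit (limma adjusted p = 0.101 and 0.301 over both times). In the fit with the block Gfi1b was called and Gfi1 was not (limma adjusted p = 0.0474 and 0.0543). Gfi1 was higher and Gfi1b lower with doxycycline in each of 4 comparisons of arrays that share a time and a replicate number. The contrast between them was not tested. Runx1 and Lmo2 were higher with doxycycline in 2 of those comparisons and lower in the other 2. The share of all probe sets with 1 sign in all 4 comparisons was not counted. Throughout, levels and differences are on the log2 scale of the deposited values, a difference is with minus without doxycycline and stands with its standard error, and its adjusted p is from limma with Benjamini-Hochberg adjustment over all 16348 probe sets. A probe set was called at an adjusted p under 0.05. In these bulk samples, fewer cells of a type and less RNA per cell cannot be told apart.

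Facts of the whole series that touch these values are few. Sox7, the induced gene, was at 10.96 and 10.82 with doxycycline at 12 h against 7.17 and 6.82 without it, and at 10.65 and 10.57 with it at 24 h against 6.96 and 6.84 without it. Array medians ran from 6.40 to 6.61, and the second array without doxycycline at 24 h had the lowest median and the narrowest spread, its values having an SD of 2.36, against 2.43 to 2.52 on the rest. The labelled sort was checked on its markers. Itga2b, which encodes CD41, was at 9.27 to 10.89 and Kit at 8.51 to 9.18 over the 8 arrays. Cd34, the marker the sort removed, was at 9.18 to 10.78, so its RNA was not shown to be absent, and Ptprc, the pan-leukocyte gene, was at 4.15 to 7.28. No detection calls were used here, so no value can be called background.

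The sequences before the start sites of 5 members are shown because these genes carry the results. Tal1 and Cbfa2t3 were called, and Myb had the widest difference at 12 h. Gfi1 and Gfi1b are the paralogs with differences of opposite sign, of which only Gfi1b was called, and only with the replicate block. Tal1 and Gfi1 are shown at the first of their 2 listed starts and Cbfa2t3 at the second of its 2, so that 1 window of each is left out. The Cbfa2t3 window left out holds the ETS match of that gene and 3 E-box matches. Each is the 250 bases upstream of a RefSeq transcript start in GRCm38.p6, 5′ to 3′ on the strand of the gene, matched by gene symbol. Capitals mark matches on either strand to 1 of 6 short motifs, of SOX, ETS, GATA, RUNX and GFI factors and of E-box binding proteins, whose letters follow the sequences.
Tal1 (chr4:115056176-115056425, plus strand): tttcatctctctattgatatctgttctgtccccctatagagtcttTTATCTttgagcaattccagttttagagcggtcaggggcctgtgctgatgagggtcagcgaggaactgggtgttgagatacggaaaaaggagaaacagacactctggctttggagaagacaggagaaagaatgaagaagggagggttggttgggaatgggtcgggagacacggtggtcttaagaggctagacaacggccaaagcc
Cbfa2t3 (chr8:122678176-122678425, minus strand): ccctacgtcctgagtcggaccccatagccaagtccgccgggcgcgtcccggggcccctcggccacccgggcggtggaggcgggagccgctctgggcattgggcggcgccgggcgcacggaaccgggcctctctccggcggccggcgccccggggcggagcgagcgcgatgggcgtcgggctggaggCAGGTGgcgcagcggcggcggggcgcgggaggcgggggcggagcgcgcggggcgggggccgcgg
Myb (chr10:21160985-21161234, minus strand): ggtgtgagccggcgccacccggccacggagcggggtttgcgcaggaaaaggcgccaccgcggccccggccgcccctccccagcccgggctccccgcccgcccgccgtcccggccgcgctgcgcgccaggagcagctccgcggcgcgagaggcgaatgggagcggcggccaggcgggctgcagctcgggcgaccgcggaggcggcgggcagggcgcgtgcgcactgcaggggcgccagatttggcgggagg
Gfi1 (chr5:107725806-107726055, minus strand): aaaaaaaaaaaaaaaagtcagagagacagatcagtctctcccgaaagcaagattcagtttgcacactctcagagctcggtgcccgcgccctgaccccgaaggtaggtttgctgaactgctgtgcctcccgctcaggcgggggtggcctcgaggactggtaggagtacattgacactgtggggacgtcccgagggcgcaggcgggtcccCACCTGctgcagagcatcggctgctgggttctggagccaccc
Gfi1b (chr2:28621983-28622232, minus strand): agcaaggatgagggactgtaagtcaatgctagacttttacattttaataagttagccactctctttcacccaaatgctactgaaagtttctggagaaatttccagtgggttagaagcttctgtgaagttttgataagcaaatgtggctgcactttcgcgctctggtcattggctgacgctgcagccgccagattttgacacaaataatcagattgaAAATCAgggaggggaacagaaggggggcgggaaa

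The RefSeq table held 14 such windows for 9 of the 10 members, all but Lmo2. The SOX letters, AACAAT, were in 0 of the 14 windows, against 9.42% of all 32851 windows of the same length. The ETS letters, CCGGAA, were in 4, of Cbfa2t3, Lyl1, Meis1 and Runx1, against 12.0% of all windows. The E-box letters, CAGNTG, were in 5, of Cbfa2t3, Gfi1, Lyl1 and Runx1, against 44.8%. The GATA letters, AGATAA, were in 1 window, at 205 bases before the upstream Tal1 start, against 9.99% of all windows. The RUNX letters, TGTGGT, were in 1 window, of Meis1, against 14.0%. The GFI letters, AAATCA, were in 1 window, of Gfi1b, against 12.4%, and that match began 34 bases before its start. These are matches of letters and say nothing of binding, and a window without them says nothing of the factor. The Myb window held no match to any of the 6 motifs. Both strands were searched, N stands for any base, and no match of one motif overlaps one of another in these windows.

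**Figure D1:**
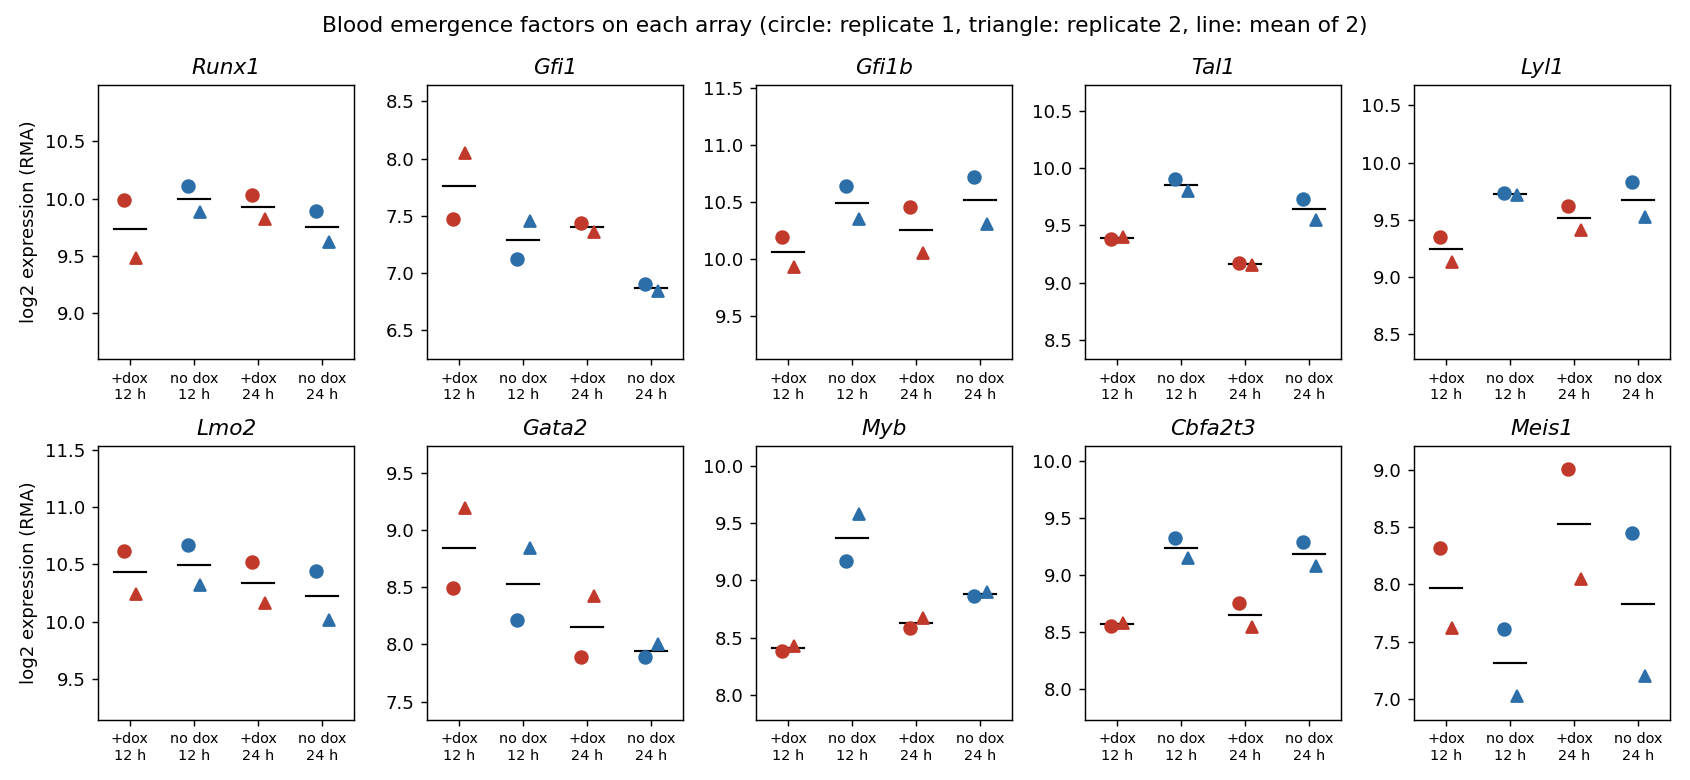
Log2 expression of the 10 factors on each array (y axis, a span of equal height in every panel), by group (x axis), with circles for replicate 1, triangles for replicate 2, red for doxycycline, blue for none, and a line at the mean of 2 arrays. The arrays with doxycycline lie below those without it for Tal1, Myb and Cbfa2t3 at both times, and above them for Gfi1 at both times.

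Tal1, a DNA-binding member of the complex named for it, was at 9.38 and 9.40 with doxycycline at 12 h against 9.91 and 9.80 without it, and at 9.17 and 9.15 with it at 24 h against 9.73 and 9.55 without it. All 4 arrays with doxycycline lay below all 4 without it. The difference was -0.47 ± 0.13 at 12 h and -0.48 ± 0.13 at 24 h (limma adjusted p = 0.247 and 0.175), and over both times Tal1 fell by 0.47 ± 0.09 (adjusted p = 0.0191, 4 arrays against 4, lower in 4 of 4 pairs). The call was lost when any of 6 of the 8 arrays was left out, with differences of -0.50 to -0.45 and adjusted p from 0.0569 to 0.0786. These 6 were the 4 arrays of 12 h and both arrays with doxycycline at 24 h, and leaving out either array without doxycycline at 24 h kept it (adjusted p = 0.0367 and 0.0172).

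Lyl1, the paralog that can stand in for Tal1 in adult blood precursors, was at 9.35 and 9.13 with doxycycline at 12 h against 9.73 and 9.72 without it. At 24 h it was at 9.62 and 9.41 with doxycycline against 9.83 and 9.52 without it, and these groups overlap. Its difference was -0.49 ± 0.17 at 12 h, -0.16 ± 0.17 at 24 h and -0.32 ± 0.12 over both times (adjusted p = 0.376, 0.881 and 0.238). It was lower in 4 of 4 pairs and was not called. Whether Tal1 and Lyl1 differed from each other in their response was not tested.

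Lmo2, the bridging LIM protein, was at 10.62 and 10.24 with doxycycline at 12 h against 10.67 and 10.32 without it, and at 10.52 and 10.16 against 10.44 and 10.01 at 24 h. Its groups overlap at both times, and its values followed the replicate number instead, with replicate 2 lower by 0.35 to 0.43 in each of the 4 groups. Over both times its difference was 0.03 ± 0.16 (adjusted p = 0.976), with a 95% interval of -0.33 to 0.38. The sign of this small difference turned under 6 of 16 alternatives.

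Gata2, a zinc finger factor of stem cells, mast cells and haemogenic endothelium, was at 8.49 and 9.19 with doxycycline at 12 h against 8.21 and 8.84 without it. At 24 h it was at 7.89 and 8.42 with doxycycline against 7.89 and 8.0 without it, and the groups overlap at both times. Its difference over both times was 0.26 ± 0.20 (adjusted p = 0.66). Replicate 2 was the higher array in all 4 groups, by 0.11 to 0.70, which is opposite to Lmo2.

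Cbfa2t3, the corepressor of the complex, had the smallest adjusted p of the 10 factors over both times. It was at 8.55 and 8.58 with doxycycline at 12 h against 9.32 and 9.15 without it, and at 8.75 and 8.54 against 9.29 and 9.08 at 24 h. The 4 arrays with doxycycline lay below the 4 without it. The difference was -0.67 ± 0.15 at 12 h and -0.54 ± 0.15 at 24 h (adjusted p = 0.122 and 0.176), and over both times Cbfa2t3 fell by 0.61 ± 0.10 (adjusted p = 0.0134, lower in 4 of 4 pairs). Without the first array with doxycycline at 12 h, or without the second at 24 h, the difference was -0.59 and -0.58 and the call was lost (adjusted p = 0.0531 and 0.0564).

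Runx1 itself, which encodes the DNA-binding subunit of core binding factor, was at 9.99 and 9.48 with doxycycline at 12 h against 10.11 and 9.88 without it. At 24 h it was at 10.03 and 9.82 with doxycycline against 9.89 and 9.62 without it, and at neither time are the groups separate. Within pairs it was lower at 12 h, by -0.12 and -0.40, and higher at 24 h, by 0.14 and 0.20. The difference between those effects was 0.43 ± 0.30 (adjusted p = 1.00, unadjusted p = 0.187) and was not called. Over both times the difference was -0.05 ± 0.16 (adjusted p = 0.955), with a 95% interval of -0.40 to 0.31, and its sign turned when the first array without or the second with doxycycline at 12 h was left out (0.04 and 0.10). Runx1 has a distal and a proximal promoter that give different isoforms, and a single probe set does not separate them.

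Gfi1 and Gfi1b encode zinc finger repressors downstream of RUNX1. Gfi1 was at 7.47 and 8.05 with doxycycline at 12 h against 7.12 and 7.45 without it, and at 7.44 and 7.36 against 6.90 and 6.84 at 24 h. The groups do not overlap at either time, though over both times they do, because 1 array without doxycycline at 12 h, at 7.45, lies above both arrays with it at 24 h. Its difference was 0.48 ± 0.21 at 12 h, 0.53 ± 0.21 at 24 h and 0.50 ± 0.14 over both times (adjusted p = 0.604, 0.396 and 0.101), higher in 4 of 4 pairs and not called. The array at 8.05 lay far from the other 3 with doxycycline.

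Gfi1b was at 10.19 and 9.93 with doxycycline at 12 h against 10.64 and 10.35 without it, and at 10.46 and 10.05 with it at 24 h against 10.72 and 10.31 without it. Only at 12 h are the groups separate. The difference was -0.44 ± 0.22 at 12 h, -0.26 ± 0.22 at 24 h and -0.35 ± 0.15 over both times (adjusted p = 0.676, 0.818 and 0.301). Replicate 2 was lower by 0.26 to 0.41 in each group, and with the replicate number as a block Gfi1b was called over both times at -0.35 ± 0.08 (adjusted p = 0.0474). Gfi1 with that block was at 0.50 ± 0.12 (adjusted p = 0.0543).

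Myb, a factor of proliferating immature blood cells, was at 8.38 and 8.43 with doxycycline at 12 h against 9.17 and 9.58 without it. At 24 h it was at 8.58 and 8.67 with doxycycline against 8.86 and 8.90 without it. Both times have separate groups, with the gap wider at 12 h, at -0.97 ± 0.16 (1.96-fold, adjusted p = 0.0511) against -0.26 ± 0.16 at 24 h (adjusted p = 0.708). The call at 12 h was made with the block (adjusted p = 0.0183), with an intensity trend (0.0314), without the dimmest probe sets (0.0268), with 1 probe set per gene (0.0441), after centring (0.0492) and with array weights (0.0179). It was not made in the other 11 alternatives, in which the adjusted p reached 0.3. Over both times the difference was -0.61 ± 0.16 (adjusted p = 0.0869, lower in 4 of 4 pairs), and with array weights it was called at -0.72 (adjusted p = 0.0279).

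The change of Myb between the times had a different sign with and without doxycycline. With doxycycline it was higher at 24 h than at 12 h by 0.22 ± 0.16, and without doxycycline it was lower at 24 h by -0.50 ± 0.16 (adjusted p = 0.964 and 0.504). The difference between the doxycycline effects at 24 h and 12 h was 0.72 ± 0.23. It had an unadjusted p of 0.0166 and was not called (adjusted p = 1.00).

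Meis1, a homeodomain partner of HOX and PBX proteins in stem cells and megakaryocyte precursors, had the widest spread. It was at 8.32 and 7.62 with doxycycline at 12 h against 7.61 and 7.02 without it, and at 9.01 and 8.05 with it at 24 h against 8.45 and 7.20 without it. The groups are separate at 12 h, though only by 7.62 against 7.61, and overlap at 24 h. Replicate 2 was lower by 0.59 to 1.25 in every group, a gap as large as the doxycycline difference or larger in 3 of the 4 groups. Within pairs Meis1 was higher with doxycycline by 0.71, 0.60, 0.56 and 0.85. Over both times the difference was 0.68 ± 0.33 (adjusted p = 0.381), and with the replicate number as a block it was called at 0.68 ± 0.12 (1.60-fold, adjusted p = 0.0138).

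**Figure D2:**
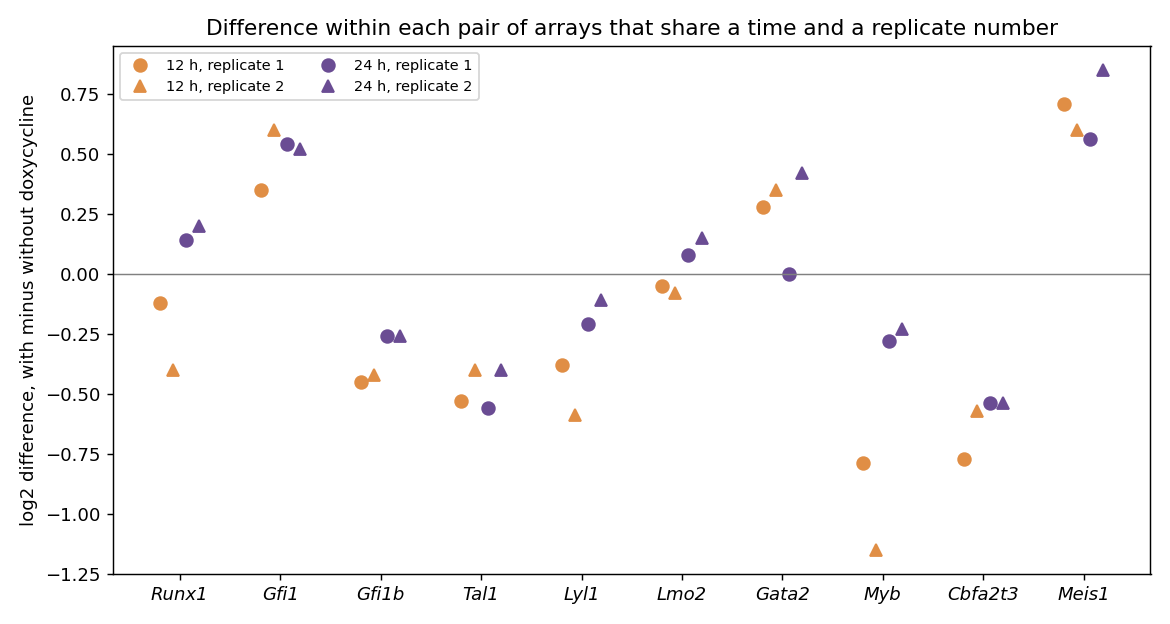
Log2 difference, with minus without doxycycline (y axis), within each of the 4 pairs of arrays that share a time and a replicate number, for each factor (x axis), with orange for 12 h, purple for 24 h, circles for replicate 1 and triangles for replicate 2. Gfi1 and Meis1 lie above 0 in 4 of 4 pairs, Gfi1b, Tal1, Lyl1, Myb and Cbfa2t3 below 0 in 4 of 4, and Runx1 and Lmo2 on either side of it by time. How many of all probe sets have 1 sign in 4 of 4 pairs was not counted.

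Counted together at 12 h, 0 of the 10 factors were called by limma, and 0.924% of all probe sets were. At an unadjusted p under 0.05 there were 4 of 10, all lower with doxycycline (Tal1, Lyl1, Myb and Cbfa2t3), against 8.85% of all probe sets in either direction and 3.66% lower. Blocked by replicate number, 2 of 10 were called, Myb and Cbfa2t3, against 2.86% of all. The groups did not overlap for 7 of 10, against 44.0% of all probe sets. The median difference of the 10 was -0.35, against -0.01 over all probe sets.

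At 24 h, 0 of 10 were called by limma, also with the block, against 1.44% of all probe sets and 4.14% with the block. At an unadjusted p under 0.05 there were 3 of 10, against 11.4% of all: Gfi1 was higher, and Tal1 and Cbfa2t3 were lower. Groups that did not overlap were found for 4 of 10, the same 3 and Myb, against 31.4%. The median difference was -0.02, against -0.01 over all probe sets. The comparisons at 12 h and 24 h share no arrays.

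Over both times 2 of 10 were called, Tal1 and Cbfa2t3, both lower, against 4.42% of all probe sets called in either direction and 1.81% called lower. Blocked by replicate number, there were 4 of 10, Tal1, Cbfa2t3 and Gfi1b lower and Meis1 higher, against 7.53% of all. All 4 arrays with doxycycline lay below all 4 without it for Tal1, Myb and Cbfa2t3, 3 of 10 against 3.58% of all probe sets, and none of the 10 had the arrays with doxycycline all above, with 9.02% separate in either direction. At an unadjusted p under 0.05 there were 6 of 10, Gfi1 higher and Tal1, Gfi1b, Lyl1, Myb and Cbfa2t3 lower, against 15.6% of all. The median difference was -0.18, against -0.01 over all probe sets. The factors were picked with earlier results of these arrays known, so the counts describe them.

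**Figure D3:**
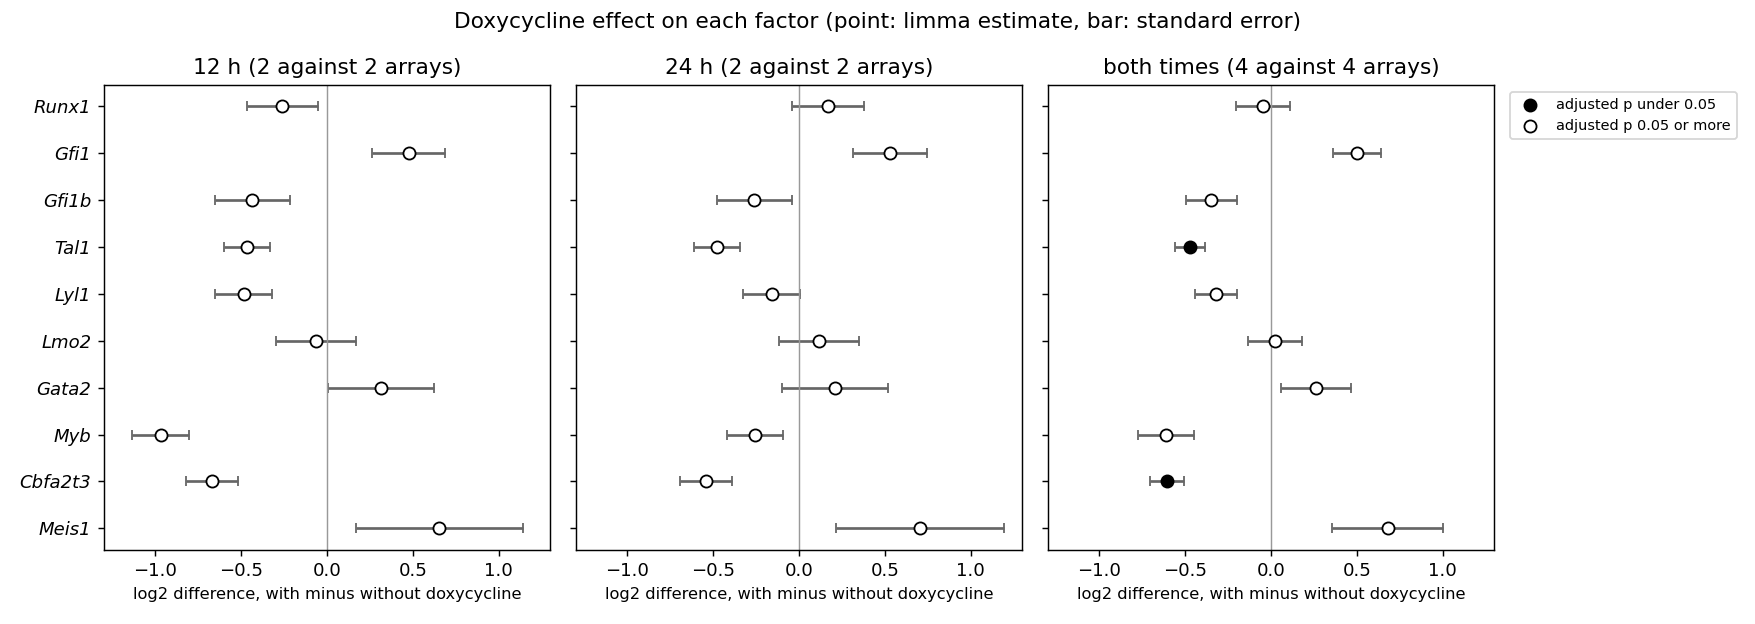
Log2 difference, with minus without doxycycline (x axis), for each factor (y axis) at 12 h, at 24 h and over both times, as the limma estimate with its standard error, filled where the adjusted p is under 0.05. Filled points appear only over both times, for Tal1 at -0.47 and Cbfa2t3 at -0.61.

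No factor was called for a difference between the doxycycline effects at 24 h and at 12 h, nor was any other probe set (0 of 10 against 0% by limma). At an unadjusted p under 0.05 there was 1 of 10, Myb, against 3.09% of all. Between 12 h and 24 h none of the factors passed the threshold, with or without doxycycline. With doxycycline, where the later arrays also had longer SOX7 induction, 0 of 10 were called against 0.184% of all. There 0 of 10 had an unadjusted p under 0.05, against 6.83%. From 12 h to 24 h without doxycycline 0 of 10 were called against 0.147% of all, and 1 of 10, Myb, had an unadjusted p under 0.05, against 7.46%. Gfi1, Tal1 and Gata2 had later arrays below the earlier ones both with and without doxycycline. In all, the times did not overlap for 5 of 10 with doxycycline and for 4 of 10 without it, against 39.1% and 28.9% of all probe sets. The differences of those 3 were -0.36 ± 0.21, -0.23 ± 0.13 and -0.69 ± 0.31 with doxycycline, and -0.42 ± 0.21, -0.22 ± 0.13 and -0.58 ± 0.31 without it (adjusted p from 0.752 to 0.883).

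Markers of other cell types moved with some of these values, and the single markers named here were picked after their values were seen. A marker is said here to rise or fall with doxycycline when it was called. Of all probe sets 4.42% were called over both times, 7.53% with the replicate number as a block, and 1.44% at 24 h. Of 6 measured erythroid markers 5 fell over both times and 0 rose, among them Klf1, the erythroid master factor, by 1.10 ± 0.12, and Epor, the erythropoietin receptor, by 0.99 ± 0.11 (adjusted p = 0.00214 and 0.00262). Their mean level was 9.48 and 9.27 with doxycycline at 12 h against 10.58 and 10.42 without it, and 9.80 and 9.72 against 11.00 and 10.73 at 24 h. Tal1, Cbfa2t3, Gfi1b and Myb are also expressed in erythroid precursors. Other members may be expressed there too, and these were named because they were lower with doxycycline. Of those named, Myb was not called over both times with or without the block, and Gfi1b was called only with it. Lyl1 and Lmo2, of the same complex as Tal1, were at -0.32 ± 0.12 and 0.03 ± 0.16 over both times (limma adjusted p = 0.238 and 0.976). The part of the erythroid markers in the differences of these factors was not tested. Of 10 endothelial markers 5 rose and 0 fell over both times, Cdh5, Pecam1, Kdr, Esam and Egfl7. Blocked by replicate number 8 of 10 were called, all higher, with Tek, Tie1 and Cldn5 added. The mean level of the 10 was 9.78 and 9.30 with doxycycline at 12 h against 9.0 and 8.06 without it, and 9.89 and 9.45 against 8.81 and 7.62 at 24 h. Gfi1, Meis1 and Gata2 were the members with differences above 0.1 over both times. Of them only Meis1 was called, and only with the block. Gata2 was higher on replicate 2 than on replicate 1 in each group, and the endothelial mean was lower there. The part of the endothelial markers in the differences of these members was not tested. Of 4 measured megakaryocyte markers 0 were called, and of 7 macrophage and myeloid markers Csf1r and Ncf1 fell over both times. At 24 h 3 of the 7 were called lower with doxycycline than without it, Csf1r, Ncf1 and Cd14, with Cd14 at -1.24 ± 0.16 (adjusted p = 0.0165). The Cd14 mean was 4.785 at 12 h and 4.90 at 24 h with doxycycline, and 4.48 and 6.135 without it. Its difference at 12 h was 0.305 ± 0.155 (limma adjusted p = 0.688). Without doxycycline Cd14 and Ncf1 were called higher at 24 h than at 12 h (limma adjusted p = 0.0223 for each). These were 2 of the 7, against 0.147% of all probe sets called there. The difference between the doxycycline effects on Cd14 at 24 h and 12 h was -1.54 ± 0.22 and was not called.

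The replicate number went with several marker lists. One was that of mesenchyme and smooth muscle markers, of which 0 of 9 were called over both times. Their mean level was 6.61, 6.65, 6.48 and 6.67 on the arrays of replicate 1, and 7.65, 7.66, 7.60 and 7.67 on those of replicate 2. The endothelial and erythroid means given before were lower on replicate 2 than on replicate 1 in 4 of 4 groups. So was the megakaryocyte mean, at 6.04, 6.38, 7.03 and 8.21 on the arrays of replicate 1 and 5.59, 5.86, 5.96 and 6.51 on those of replicate 2. Meis1, Lmo2, Gfi1b, Runx1 and Lyl1 were lower on replicate 2 in 4 of 4 groups, and Gata2 and Myb were higher there in 4 of 4. The part of these markers in the replicate differences was not tested. How many of all probe sets had 1 order of the replicates in 4 of 4 groups was not counted.

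Partners of the factors, taken from lists of known complex members, mostly stayed short of the threshold. Over both times 1 of 12 measured partners of the TAL1 complex was called, against 4.42% of all probe sets. It was Tcf4, an E-protein that pairs with TAL1 and LYL1, which rose by 1.19 ± 0.20 (2.28-fold, adjusted p = 0.0154). Tcf4 was at 9.41 and 9.39 with doxycycline at 12 h against 8.40 and 8.15 without it, and at 9.33 and 8.91 against 8.35 and 7.38 at 24 h. All arrays with doxycycline lay above all without it, and the call was lost without the first array with doxycycline at 24 h or the second without it at 12 h, at 1.09 and 1.15 (adjusted p = 0.0576 and 0.0536). The median of the 12 was 0.10, against -0.01 over all probe sets.

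Of 5 ETS partners, factors that bind with RUNX1, TAL1 and GATA2 at blood enhancers, Fli1 rose by 1.47 ± 0.32 and Spi1, the myeloid factor PU.1, fell by 0.95 ± 0.21 (adjusted p = 0.0401 and 0.0436). Of all probe sets 4.42% were called over both times. Fli1 was at 11.66 and 11.44 with doxycycline at 12 h against 10.41 and 9.33 without it, and at 11.21 and 10.73 against 10.34 and 9.10 at 24 h. Spi1 was at 7.07 and 7.88 with doxycycline at 12 h against 8.33 and 8.54 without it, and at 8.17 and 8.51 against 9.62 and 8.94 at 24 h. Each of these calls was lost when any of 6 of the 8 arrays was left out, with Fli1 at 1.21 to 1.60 (adjusted p from 0.0669 to 0.125) and Spi1 at -1.02 to -0.79 (adjusted p from 0.085 to 0.139). Fli1 kept its call when replicate 1 without doxycycline was left out, at 12 h or at 24 h, and Spi1 without the second given it at 12 h or lacking it at 24 h. Tcf4 and Fli1 are also expressed in endothelium and Spi1 in myeloid cells, and the part of the endothelial and myeloid markers in their differences was not tested.

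The remaining partner lists had 0 genes called by limma over both times, against 4.42% of all probe sets. An unadjusted p under 0.05 was found for 15.6% of all. Of 4 measured core binding factor partners, 2 had an unadjusted p under 0.05: Cbfb, the subunit that stabilises RUNX1 on DNA, at 0.27 ± 0.09 and Runx3 at -0.33 ± 0.13 (adjusted p = 0.183 and 0.249). Of 5 corepressors of GFI1, 2 did, Rcor1 at 0.37 ± 0.11 and Rcor2 at 0.35 ± 0.13 (adjusted p = 0.136 and 0.211), both scaffolds that tie LSD1 to its targets. All 5 of these had differences above 0, with a median of 0.15. Of 6 TALE homeodomain partners 0 did, and those with the smallest p were Meis2 at 0.54 ± 0.33 and Pbx3 at 0.22 ± 0.14 (adjusted p = 0.547 and 0.578). With the replicate number as a block, Tcf4, Rcor1, Fli1 and Spi1 were called over both times. So were Gata1 and Erg, which were picked out after their values were seen, at -0.70 and 0.86 (limma adjusted p = 0.00759 and 0.0375). That blocked fit called 7.53% of all probe sets. Among 12 TAL1 complex partners it called 1 higher and 1 lower, and among 5 ETS partners 2 higher and 1 lower. Among 5 corepressors of GFI1 it called 1, higher. It called 0 of 4 core binding factor partners and 0 of 6 TALE partners.

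**Figure D4:**
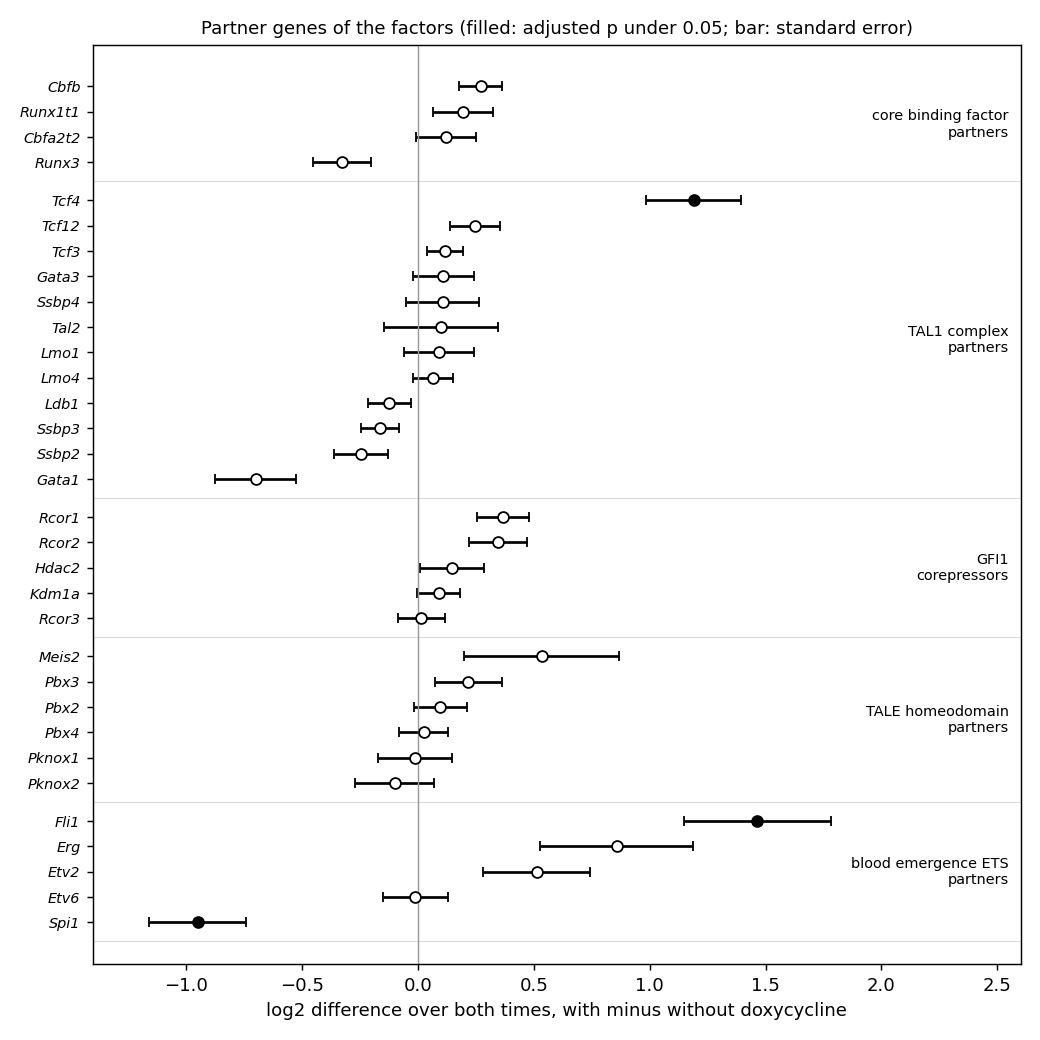
Log2 difference over both times, with minus without doxycycline (x axis), with its standard error, for the measured partner genes (y axis) in 5 lists, filled where the adjusted p is under 0.05. Tcf4 at 1.19, Fli1 at 1.47 and Spi1 at -0.95 are filled, and the corepressors of GFI1 all lie above 0.

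The genes most like each factor over the 8 arrays were looked up among 14673 other genes by Pearson's r, as a description of arrays that share groups and replicate numbers. Tal1 was matched by Phlda1 and Azin1 (r = 0.988 and 0.984), Cbfa2t3 by Stk11 and Eri1 (r = 0.985 and 0.982), and Lyl1 by Cep250 and Topbp1 (r = 0.989 and 0.979). Gfi1b had Hectd4 and Thbs1 (r = 0.991 and 0.986), Gfi1 had Bcl9l and Plekhg2 (r = 0.98 and 0.979), and Meis1 had Pik3cb and Rhbdd3 (r = 0.989 and 0.984). Gata2 was followed by Slc7a6 and Zfp462 (r = 0.988 and 0.985), Runx1 by Slc6a15 and Szrd1 (r = 0.971 and 0.961), and Lmo2 by Ankrd27 and Smyd4 (r = 0.972 and 0.965). Myb had the least close neighbours, Bco1 and Lrp8 (r = 0.952 and 0.939). How high the best r among 14673 genes runs by chance over 8 arrays was not tested. The range of these neighbours over the arrays ran from 0.21 log2 for Szrd1 to 2.48 for Thbs1.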

How the data were processed

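Total RNA of 8 samples was labelled as biotinylated sense-strand DNA and hybridised to Affymetrix arrays, 1 sample per array. The authors deposited log2 values made with RMA in Affymetrix Power Tools, per the submitters' processing notes, without versions. RMA covers background correction, normalization between arrays and a summary per probe set. The values' range fits that scale. Any further centring and the genome build are not given in the sources used here.

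Groups and replicate numbers came from the sample titles, with 0 columns left unmapped. Of 16348 probe sets, 14785 had 1 symbol in the platform annotation, 950 had several and 613 had none. Where several probe sets named 1 gene, the one of highest mean stood for it. All probe sets entered limma 3.58.1 under R 4.3.3, through lmFit and eBayes. The model had 1 mean per group, with 4 residual degrees of freedom plus a prior of 3.44, or, over both times, with terms for doxycycline and time and 5 residual degrees of freedom. No filter was applied. The fit was tried on simulated arrays with planted changes larger than any factor's difference and noise independent between arrays. Recovery of differences of the size seen here was not tested.

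Nothing says that replicates came from separate cultures, so p-values reflect just the spread among these samples, possibly technical. The number of arrays limits the precision. Deviations of arrays with the same replicate number correlated over all pairs of groups (r from 0.298 to 0.428), so over both times, with 4 pairs, the number was taken as pairing the samples. The main model nevertheless holds no term for that number, and the fit with it as a block is given beside the main one. A time by itself holds only 2 pairs. Named were all 10 factors, Sox7, partner genes called in a doxycycline comparison or otherwise up to 2 per list with the smallest p over both times, and the 2 genes most like each factor. The factors, lists and motifs were chosen with earlier results of these data known. Alternatives were a repeated quantile normalization, median centring, eBayes with a trend or robust, leaving out the dimmest probe sets, 1 probe set per gene, array weights, the replicate block, fitting just the compared groups, and leaving out each array.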

Additional observations from a re-analysis of the deposited data

Results flagged for a closer look

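On the 4 arrays with doxycycline, Gfi1 at 8.05 on the second array of 12 h lay far from the other 3, which were at 7.36 to 7.47. Tcf4 at 8.91 on the second array with doxycycline at 24 h lay below the other 3, at 9.33 to 9.41. These 4 arrays span both times. The rule was run on every factor and on Tcf4, Fli1, Spi1 and Sox7, each with and without doxycycline. Chance flags about 1 in 20 such groups.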

How the results depend on the processing

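Of the 10 factors, 0 were called at 12 h. There was 1 with quantile normalization repeated, with median centring, with an intensity trend, without the dimmest probe sets and with 1 probe set per gene, and there were 2 with array weights and 2 with the replicate block. At 24 h there were 0 under every alternative run. Over both times 2 were called, 4 with the replicate block, and 0 to 2 when an array was left out. Over all probe sets, calls at 12 h were 151, against 241 with quantile normalization repeated, 239 without the dimmest, 495 with array weights, 467 with the block, 0 when fitting just the compared groups, and 7 to 201 without 1 array. At 24 h they were 235, against 415, 367, 18, 677, 126 and 4 to 297 in the same order. Over both times they were 723, against 1231 with the block and 377 to 730 without 1 array. From 12 h to 24 h with doxycycline they were 30, against 49 with quantile normalization repeated, 62 with a trend, 58 without the dimmest, 88 with weights, 123 with the block, 0 when fitting just the compared groups, and 0 to 29 without 1 array. Without doxycycline they were 24, against 61, 44, 51, 0, 130, 1 and 0 to 36 in that order. A filter tests fewer probe sets and a smaller fit has fewer arrays, and for the other settings the cause was not tested. Beyond the values given with the results, the block changed no other call of a factor.

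Signs turned for small differences. The difference of Lmo2 over both times was -0.0137 with centring and -0.035 with array weights, and -0.079 to 0.119 without 1 array. The difference between the effects on Gfi1 at 24 h and 12 h was -0.0212 with quantile normalization repeated, and -0.24 to 0.35 without 1 array. Without 1 array, Lmo2 ranged from -0.255 to 0.125 at 12 h and from -0.10 to 0.33 at 24 h, Gata2 from -0.035 to 0.665 and from -0.055 to 0.475, and Runx1 over both times from -0.14 to 0.10. The difference between the effects at 24 h and 12 h ranged from -0.03 to 0.38 for Gfi1b, -0.105 to 0.075 for Tal1, -0.035 to 0.395 for Lmo2, -0.455 to 0.245 for Gata2 and -0.575 to 0.675 for Meis1. Over both times without 1 array, Tal1 ranged from -0.507 to -0.435 and Cbfa2t3 from -0.66 to -0.558. Sox7 at 12 h, fitted on just the compared groups, had a difference of 3.90 and an adjusted p of 0.0694. Another choice of probe set gave no value, since each factor has 1. With 2 arrays per group, differences as small as those of Runx1 and Lmo2 lie within the spread between replicates.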
